A study of Ovis aries with 15 samples.

Results

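Renal drug and toxin transporters are membrane carriers that move organic anions and cations from the blood through the proximal tubule cell into the urine. The set described here was named by gene symbol as SLC22A8, SLC22A2, SLC47A1, SLCO4C1, ABCC2, ABCC4 and ABCG2, a rule that holds no measured value. Of these 7 genes, 6 were among the 25592 genes of the deposited table, and ABCC4 was not listed under its symbol. Their levels were measured by poly(A) RNA-seq of kidney tissue from male Dorper × Small-tailed Han sheep, 4 months of age. The CON group received the basal total mixed ration for 21 days. The AFB1 group ate that ration with aflatoxin B1 (AFB1) added at 500 µg/kg dry matter, and the AFB1_CUR group ate it with the same AFB1 dose plus curcumin (CUR) at 800 mg/kg dry matter. Each group held 6 sheep, kept 2 to a pen, and gave 5 libraries. The portion of the kidney, cortex or medulla, is not stated for the RNA, and which libraries came from pen mates is not given in the labels.

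In the proximal tubule, secretion runs in series. Carriers of the basolateral membrane, such as the organic anion and organic cation transporters of the SLC22 family, take compounds up from blood, and carriers of the apical membrane, such as the MATE exchangers and the ATP-driven pumps of the ABC family, release them into the tubular fluid. Many of their substrates are drugs, plant and fungal toxins, and the glutathione, glucuronide and sulfate conjugates made from them, and metabolites of AFB1 leave the body in part with the urine. Because these carriers sit largely in proximal tubule cells, their level in a piece of kidney depends on how much proximal tubule the piece holds as well as on the RNA in each cell, and in bulk RNA fewer cells and less RNA per cell cannot be told apart.

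The 15 libraries held 50255295 to 68747047 counts. The library labelled AFB1 replicate 1 stood apart from the other 14. All 10 hepatocyte markers were higher there than in any other library, all 9 markers of the loop of Henle and collecting duct were lower, with KCNJ1 and SCNN1G at 0, and 8 of 9 proximal tubule markers were lower, GATM being the exception. The proximal tubule score, the mean log2(FPKM + 1) of those 9 markers, was 1.56 there and 6.34 to 8.13 in the others. That library therefore went against its kidney label, so it is shown apart throughout and the comparisons use the other 14 libraries, with values for all 15 given beside some of the results. In the remaining libraries the proximal tubule score was 7.47 ± 0.42 in CON (SD, n = 5), 7.04 ± 0.52 in AFB1 (SD, n = 4) and 7.24 ± 0.55 in AFB1_CUR (SD, n = 5), and none of the proximal tubule markers was at 0.

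In the CON group the transporters covered a wide range of levels on the FPKM scale, which scales fragments to transcript length and library depth and so allows levels to be compared between genes. The order of the medians was SLC22A8 (347), SLC22A2 (67.3), ABCC2 (10.8), SLCO4C1 (3.59), SLC47A1 (0.380) and ABCG2 (0.224). Each gene was above the next one in this order in 5 of 5 CON libraries, although the ranges of ABCC2 and SLCO4C1 overlapped. Over the 14 libraries, SLC22A8 was above SLC22A2 and SLC22A2 above ABCC2 in all 14, ABCC2 was above SLCO4C1 in 13, and SLC47A1 was above ABCG2 in only 11. The place of ABCG2 rests on the length used for it. Its FPKM values imply a length of 25536 bases, against 2296 to 9998 bases for the other members and a median of 4.5 kb over messenger RNA genes, and its 212 to 1210 counts per library exceeded the 30 to 128 counts of SLC47A1.

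**Figure D1:**
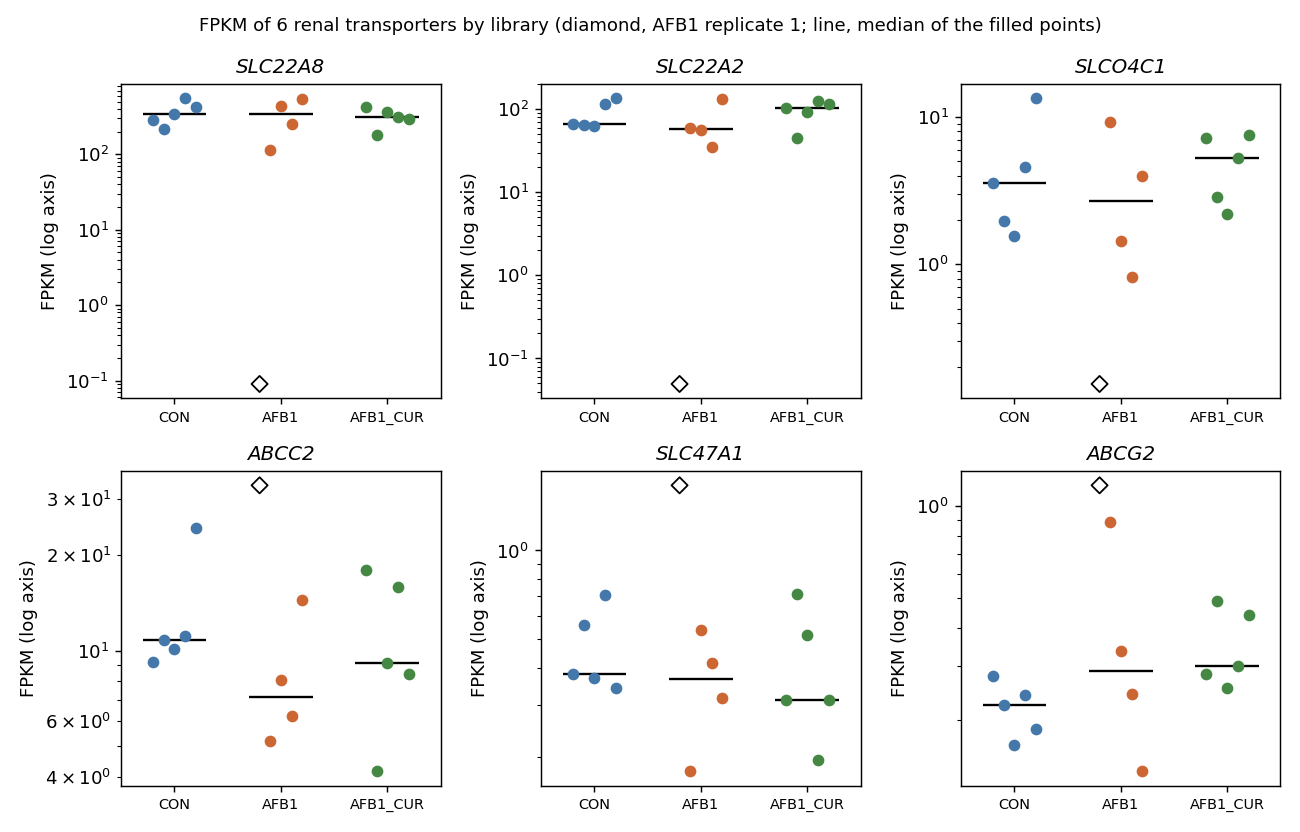
FPKM of each transporter in every library on a log axis, by group, with a line at the median of the filled points and an open diamond for AFB1 replicate 1. The groups overlap for each gene, and the diamond lies below all other libraries for SLC22A8, SLC22A2 and SLCO4C1 and above them for ABCC2, SLC47A1 and ABCG2.

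The basolateral uptake carriers come first. SLC22A8 encodes OAT3, which takes up organic anions such as penicillins, diuretics and the mycotoxin ochratoxin A in exchange for dicarboxylates. It lies on chromosome 21 from 37830849 to 37852185. Its FPKM in CON replicates 1 to 5 was 282, 215, 347, 559.7 and 418. In AFB1 replicates 2 to 5 it was 116, 431, 251 and 539.8, and in AFB1_CUR replicates 1 to 5 it was 426, 183, 368, 309 and 290.5. The groups overlapped almost completely. AFB1 replicate 2 was the lowest and AFB1 replicate 5 the second highest of the 14, so the AFB1 libraries alone covered nearly the whole range. The mean was 364 ± 133 in CON (SD, n = 5), 334 ± 188 in AFB1 (SD, n = 4) and 315 ± 91.0 in AFB1_CUR (SD, n = 5). In AFB1 replicate 1, SLC22A8 had 12 counts and an FPKM of 0.0901.

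SLC22A2 encodes OCT2, the main basolateral entry of organic cations such as metformin and cisplatin into the tubule cell. It lies on chromosome 8 from 84110148 to 84143182. The FPKM in CON replicates 1 to 5 was 67.3, 64.0, 62.8, 115 and 137. It was 59.5, 57.0, 34.8 and 135 in AFB1 replicates 2 to 5, and 103, 45.1, 92.7, 128 and 117 in AFB1_CUR replicates 1 to 5. In AFB1 a single library, replicate 5, lay within the upper part of the CON range and the other 3 lay below every CON library, whereas in AFB1_CUR a single library, replicate 2, lay below them. The mean was 89.2 ± 34.5 in CON (SD, n = 5), 71.5 ± 43.5 in AFB1 (SD, n = 4) and 96.9 ± 31.9 in AFB1_CUR (SD, n = 5). AFB1 replicate 1 held 19 counts of SLC22A2, an FPKM of 0.0493.

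SLCO4C1 encodes OATP4C1, an organic anion transporting polypeptide that takes up digoxin and thyroid hormones. The gene spans 98853080 to 98944268 on chromosome 5. FPKM values were 3.59, 1.97, 1.56, 4.60 and 13.5 in CON replicates 1 to 5. It was 9.30, 1.45, 0.822 and 3.98 in AFB1 replicates 2 to 5, and 7.24, 2.89, 2.21, 5.28 and 7.56 in AFB1_CUR replicates 1 to 5. Its highest library was 8.66 times the lowest within CON and 11.3 times the lowest within AFB1, the widest spans of the 6 members in those groups, but 3.42 times within AFB1_CUR, where ABCC2 (4.30) and SLC47A1 (3.67) spanned more. The groups overlapped. The mean was 5.05 ± 4.89 in CON (SD, n = 5), 3.89 ± 3.86 in AFB1 (SD, n = 4) and 5.03 ± 2.44 in AFB1_CUR (SD, n = 5). In AFB1 replicate 1 the FPKM was 0.154, below the 14 others.

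Of the apical efflux carriers, ABCC2 encodes MRP2, a pump that exports glutathione and glucuronide conjugates and that is also abundant in the canalicular membrane of hepatocytes. It lies on chromosome 22 from 20538158 to 20612905. The FPKM in CON replicates 1 to 5 was 9.21, 10.8, 10.1, 11.1 and 24.4. In AFB1 replicates 2 to 5 it was 5.21, 8.07, 6.24 and 14.5, and in AFB1_CUR replicates 1 to 5 it was 17.9, 4.17, 9.16, 15.8 and 8.42. As for SLC22A2, 3 of the 4 AFB1 libraries lay below every CON library and replicate 5 lay above 4 of the 5, so the groups overlapped through that library. In AFB1_CUR, 3 of the 5 libraries also lay below every CON library. The mean was 13.1 ± 6.34 in CON (SD, n = 5), 8.49 ± 4.15 in AFB1 (SD, n = 4) and 11.1 ± 5.65 in AFB1_CUR (SD, n = 5). AFB1 replicate 1 had the highest ABCC2 of all libraries, at 33.2 FPKM, beside its hepatocyte markers.

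SLC47A1 encodes MATE1, which exchanges protons for organic cations at the apical membrane and hands on what OCT2 has taken up. The gene spans 33737759 to 33767108 on chromosome 11. Its FPKM stayed under 1 in every library but AFB1 replicate 1, where it was 1.66. The other values were 0.380, 0.560, 0.369, 0.705 and 0.341 in CON replicates 1 to 5. They were 0.178, 0.537, 0.415 and 0.315 in AFB1 replicates 2 to 5, and 0.311, 0.7145, 0.516, 0.195 and 0.311 in AFB1_CUR replicates 1 to 5. No group stood apart. At 30 to 128 counts per library, SLC47A1 did not pass the filter, which asked for 4 or more of the 14 libraries at an FPKM of 1 or above.

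ABCG2 encodes BCRP, a pump for urate, sulfate conjugates and many drugs. It lies on chromosome 6 from 37142549 to 37274609. Its FPKM in CON replicates 1 to 5 was 0.279, 0.224, 0.165, 0.241 and 0.186. It was 0.8865, 0.335, 0.243 and 0.1355 in AFB1 replicates 2 to 5, and 0.282, 0.490, 0.254, 0.299 and 0.442 in AFB1_CUR replicates 1 to 5. AFB1 replicate 2 was the highest of the 14 and AFB1 replicate 5 the lowest, so the AFB1 group enclosed both of the others. Of the AFB1_CUR libraries 4 of 5 lay above every CON library. In AFB1 replicate 1 the FPKM was 1.17, above all 14, and ABCG2 also did not pass the filter.

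ABCC4 encodes MRP4, an apical pump for organic anions and cyclic nucleotides. No row of the table carried its symbol, but 8 rows on chromosome 10 between 70075749 and 72256729 were described as MRP4 or MRP4-like, 7 of them as MRP4-like. The row described plainly as MRP4, LOC101106534, was picked after those descriptions had been read and is not counted as a member. Its median FPKM over the 14 libraries was 2.29, while each MRP4-like row had a median of at most 0.141. Reads can be shared between such copies, so the value of each is uncertain. The FPKM of LOC101106534 was 1.37, 2.41, 2.03, 1.95 and 1.56 in CON replicates 1 to 5, 2.76, 2.48, 2.04 and 2.63 in AFB1 replicates 2 to 5, and 2.66, 4.53, 2.14, 2.22 and 2.35 in AFB1_CUR replicates 1 to 5. In AFB1, 3 of 4 libraries lay above every CON library.

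The comparison of AFB1 with CON addresses whether the toxin changed the transporters. The quasi-likelihood test of edgeR was run on the counts, and a gene was called when its fold change exceeded 1.5 with p below 0.05 before adjustment. Compared with the CON group, none of the 4 members that passed the filter (SLC22A8, SLC22A2, SLCO4C1 and ABCC2) was called in the AFB1 group, where 1.78% of the 13394 genes tested were called. The estimates were negative for all 4. The log2 fold change was -0.11 for SLC22A8 (95% interval -1.03 to 0.82), -0.30 for SLC22A2 (-1.22 to 0.62), -0.43 for SLCO4C1 (-1.98 to 1.12) and -0.60 for ABCC2 (-1.59 to 0.40). Their median was -0.36, beside 0.02 over all genes tested. Each interval included both no change and a 1.5-fold decrease, so a decrease of that size was not excluded. The intervals of SLC22A8, SLC22A2 and SLCO4C1 also included a 1.5-fold increase. The unadjusted p values from edgeR were 0.809, 0.501, 0.565 and 0.221, and the adjusted p with Benjamini-Hochberg adjustment over all genes was 0.962 to 0.985.

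Leaving out 1 library changed this count. Without AFB1 replicate 5, SLC22A2 fell by 0.89 (edgeR, unadjusted p = 0.0365) and ABCC2 fell by 1.06 on the log2 scale (edgeR, unadjusted p = 0.0433), and both were then called, beside 3.51% of all genes tested in that fit. Omitting any other single library gave smaller declines of both genes, and neither was called. The smallest were -0.07 for SLC22A2, without AFB1 replicate 4, and -0.24 for ABCC2, without CON replicate 5. AFB1 replicate 5 had the highest proximal tubule score of the AFB1 libraries, 7.81 against 6.67 to 6.86 in the other 3. With all 15 libraries, ABCC2 turned to a log2 fold change of 0.45. With the proximal tubule score as a covariate, the estimates were 0.24 for SLC22A8, 0.16 for SLC22A2, 0.59 for SLCO4C1 and -0.02 for ABCC2, with none called. Because the score comes from RNA of the same libraries, this fit cannot tell fewer proximal tubule cells from less RNA per cell. The part of the proximal tubule share in the differences was not tested.

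Without the filter, ABCG2 was called between AFB1 and CON with a log2 fold change of 0.79 (standard error 0.37, edgeR's unadjusted p = 0.0489, adjusted p = 0.848 with Benjamini-Hochberg adjustment). In that fit 3.41% of 25449 genes were called. The value was 0.14 without AFB1 replicate 2 and 1.62 with all 15 libraries. The call was lost without that library. It was also lost without any of 9 others, at values of 0.70 to 0.86 (edgeR, unadjusted p = 0.0501 to 0.0986), and with limma, a replicate block, only the groups compared or the proximal tubule covariate. SLC47A1 was not called there, with a log2 fold change of -0.37 (95% interval -1.25 to 0.50), which turned to 0.78 with AFB1 replicate 1 included. For LOC101106534, the row described as MRP4, the log2 fold change was 0.41 (standard error 0.20) and was not called (edgeR, unadjusted p = 0.0565).

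**Figure D2:**
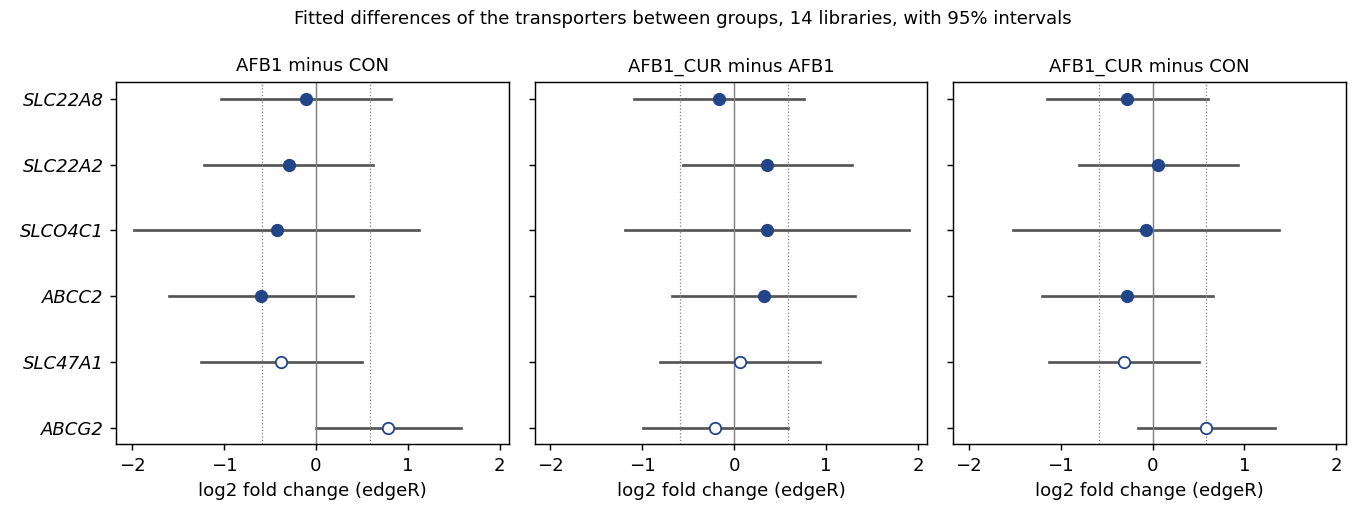
Log2 fold change of each transporter in the 3 comparisons from the edgeR fit of 14 libraries, with 95% intervals as bars, filled points for genes past the filter and open points for genes fitted without it. Dotted lines mark a 1.5-fold change. All intervals cross 0 except that of ABCG2 in AFB1 against CON, whose lower end is at 0.005.

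The comparison of AFB1_CUR with AFB1 addresses whether curcumin changed the transporters in sheep that received the toxin. None of the 4 tested members was called, beside 0.993% of all genes tested. The log2 fold change was -0.17 for SLC22A8 (95% interval -1.09 to 0.76), 0.36 for SLC22A2 (-0.56 to 1.28), 0.36 for SLCO4C1 (-1.19 to 1.91) and 0.32 for ABCC2 (-0.67 to 1.31). The median of the 4 was 0.34, beside 0.00 over all genes tested. The AFB1 libraries are shared with the comparison above, so opposite signs in the 2 comparisons are not independent. Without AFB1 replicate 5, SLC22A2 was called, with a log2 fold change of 0.96 (edgeR, unadjusted p = 0.0272), beside 1.75% of all genes tested in that fit. That was the highest value of SLC22A2 over the single omissions. The lowest was 0.13, without AFB1 replicate 4, and was not called. Single omissions gave 0.02 to 1.14 for SLCO4C1 and 0.06 to 0.78 for ABCC2, none of them called. Without the filter, ABCG2 had a value of -0.20 and SLC47A1 of 0.06, neither called, while 2.78% of 25449 genes were called. With all 15 libraries, ABCC2 turned to -0.72, SLC47A1 to -1.08 and SLC22A8 to 0.15, none of them called.

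Between AFB1_CUR and CON, again none of the 4 tested members was called, beside 1.75% of all genes tested. The log2 fold change was -0.27 for SLC22A8 (95% interval -1.14 to 0.60), 0.06 for SLC22A2 (-0.80 to 0.93), -0.07 for SLCO4C1 (-1.52 to 1.38) and -0.28 for ABCC2 (-1.21 to 0.66). The median was -0.17, beside 0.00 over all genes tested. With the proximal tubule score as a covariate, the log2 fold change of SLC22A2 was 0.37 (standard error 0.14, edgeR's unadjusted p = 0.0236, adjusted p = 0.593), a fold change under 1.5 and so not called. Without the filter, ABCG2 had a log2 fold change of 0.59 (edgeR's unadjusted p = 0.115) and SLC47A1 of -0.31, neither called, where 3.65% of 25449 genes were called. For LOC101106534 the estimate was 0.49 (standard error 0.19, edgeR's unadjusted p = 0.0214, adjusted p = 0.816), also under 1.5-fold.

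None of the 4 tested members had groups without overlap in FPKM in any comparison. Such separation was found in 1.53% of the tested genes between AFB1 and CON, 0.679% between AFB1_CUR and AFB1, and 0.732% between AFB1_CUR and CON. After Benjamini-Hochberg adjustment, edgeR called 0 of the 13394 genes in each comparison, with 670, 311 and 747 at an unadjusted p under 0.05 and 19, 3 and 2 called by DESeq2. The p values set group differences against the spread between libraries, which the tests treat as independent. The labels do not say that they are independent beyond being separate replicates, and which came from pen mates is not given.

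The tested members varied more between libraries of a group than most genes. The standard deviation within groups of log2 CPM was 0.74 for SLC22A8, 0.70 for SLC22A2, 1.21 for SLCO4C1 and 0.77 for ABCC2, against a median of 0.28 over all tested genes. Of the tested genes, 90.3% to 97.8% had a smaller standard deviation than these members. The proximal tubule score moved with that spread. Over the 14 libraries, Pearson's r of log2(FPKM + 1) with the score was 0.938 for ABCC2, 0.901 for SLC22A2, 0.664 for SLC22A8 and 0.597 for SLCO4C1, with Spearman's rho of 0.903, 0.930, 0.670 and 0.578. None of these transporters is among the markers of the score.

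After leaving out AFB1_CUR replicate 2 and CON replicate 5, the 2 libraries farthest from the median score, r was 0.876 for ABCC2, 0.900 for SLC22A2, 0.612 for SLC22A8 and 0.506 for SLCO4C1. After subtracting the group means it was 0.929, 0.937, 0.652 and 0.608. ABCC2 and SLC22A2, a conjugate pump and a cation carrier on opposite membranes, thus followed the score most closely within groups as well. The low transcripts went the other way, with an r of -0.505 for ABCG2 and -0.352 for SLC47A1, the latter -0.080 without those 2 libraries. With AFB1 replicate 1 included, r rose to 0.971 for SLC22A8 and 0.989 for SLC22A2 and turned to -0.309 for ABCC2. These shifts came from that single library, whose score was 1.56 against 6.34 to 8.13 in the other 14. These correlations describe libraries that share the FPKM scaling, and were given no test.

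**Figure D3:**
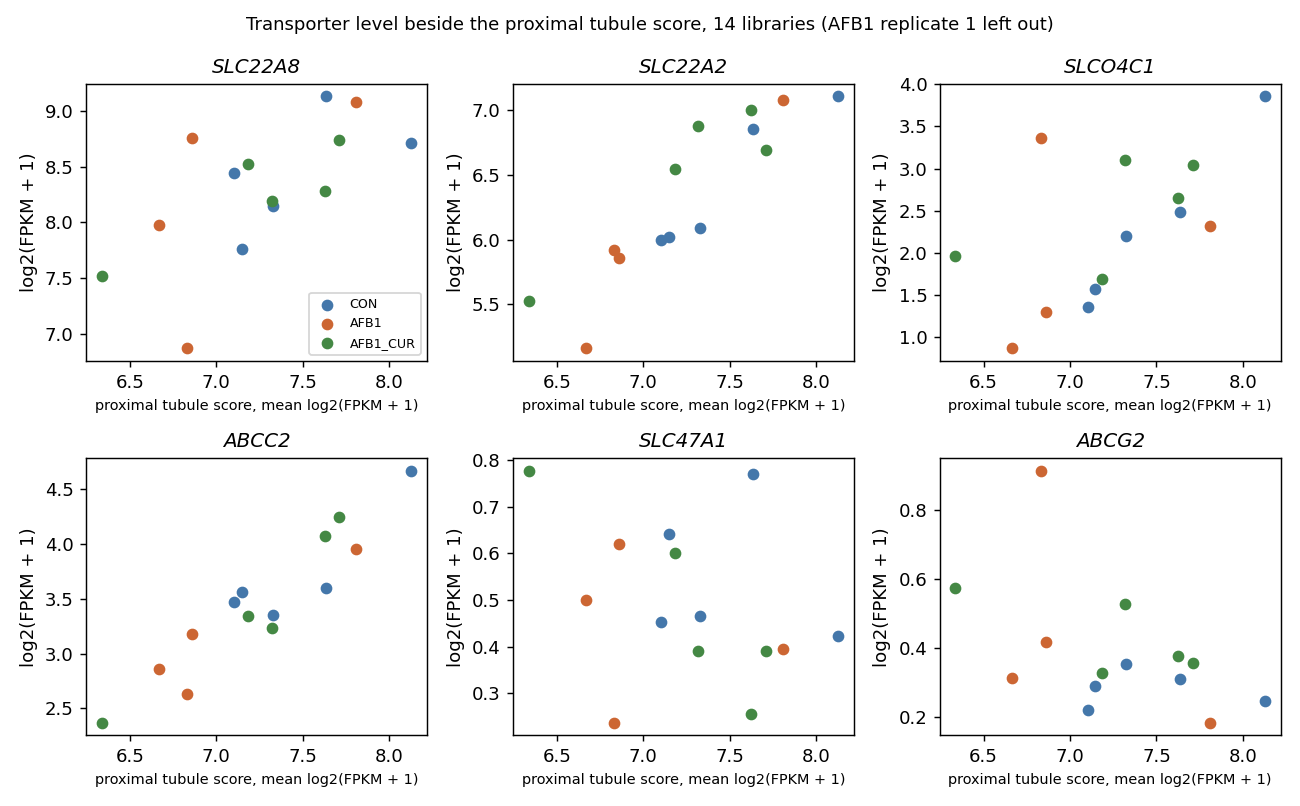
Log2(FPKM + 1) of each transporter against the proximal tubule score, the mean log2(FPKM + 1) of 9 markers, in 14 libraries coloured by group. ABCC2 (r = 0.938) and SLC22A2 (r = 0.901) rise along the score in all groups, SLC22A8 and SLCO4C1 follow it more loosely, and SLC47A1 and ABCG2 do not rise along it.

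The loop and collecting duct score was 6.17 ± 0.25 in CON (SD, n = 5), 6.17 ± 0.33 in AFB1 (SD, n = 4) and 6.10 ± 0.37 in AFB1_CUR (SD, n = 5). The r of the members with it was -0.418 for SLC22A8, -0.132 for SLC22A2, 0.086 for SLCO4C1, -0.105 for ABCC2, -0.410 for SLC47A1 and 0.336 for ABCG2. Without AFB1_CUR replicates 2 and 5, the farthest from the median of that score, the values were -0.839 for SLC22A8, -0.656 for SLC22A2, -0.131 for SLCO4C1, -0.479 for ABCC2, -0.155 for SLC47A1 and 0.557 for ABCG2, so each value moved with those libraries. Among themselves, SLC22A2 and ABCC2 had the highest Pearson's r, 0.783 (rho 0.807), and SLC22A8 and ABCG2 the lowest, -0.767, although by Spearman's rho (-0.468) SLCO4C1 with SLC47A1 was lower (-0.631). SLC22A8 and SLCO4C1, both uptake carriers of organic anions, had an r of -0.012. AFB1 replicate 2 showed the split plainly, with the lowest SLC22A8 and the second highest SLCO4C1 of the 14 libraries.

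For each member, the named genes of highest Pearson's r over the 14 libraries were picked from all tested genes. Their r is high in part through that choice. For SLC22A2 they were SLC15A2 (Pearson's r = 0.945), the apical peptide transporter PEPT2, ENPP6 (0.929) and CLDN2 (0.918), a paracellular cation pore of the proximal tubule. For ABCC2 they were SLC16A12 (0.927), TMEM174 (0.925) and SLC5A12 (0.922), the last a lactate carrier that is itself 1 of the proximal tubule markers. For SLC22A8 they were FAH (0.948), the last enzyme of tyrosine breakdown, GUCD1 (0.930) and FGFRL1 (0.928). For SLCO4C1 they included PRRG1 (0.913) and EPS8 (0.906). For the members with low counts they were BORCS8 (0.854), RIMS3 (0.800) and NRBF2 (0.787) with SLC47A1, and ZNF184 (0.946), APCDD1 (0.933) and SMOC2 (0.917) with ABCG2. For ZNF184 Spearman's rho was only 0.490.

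The low level of SLC47A1 was set beside its neighbour SLC47A2, which encodes MATE2, the other proton and cation exchanger of the apical membrane. SLC47A2 spans 33654531 to 33673677 on the same chromosome. FPKM values were 291, 221, 329, 271 and 195 in CON replicates 1 to 5. It was 92.4, 147, 98.3 and 206 in AFB1 replicates 2 to 5, and 216, 159.8, 230.5, 155.0 and 149 in AFB1_CUR replicates 1 to 5. Within a library it was 224 to 892 times as high as SLC47A1 (median 499.6, n = 14), so nearly all MATE transcripts in these kidneys carried the SLC47A2 annotation. How the counting treated reads that match both paralogs is not stated. In AFB1 replicate 1 the SLC47A2 level was 4.13 FPKM, the lowest of all libraries, while SLC47A1 was at its highest there.

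SLC47A2 was called lower in AFB1 than in CON, with 3 of 4 AFB1 libraries below every CON library. The log2 fold change was -0.93 (standard error 0.28, edgeR's unadjusted p = 0.00556, adjusted p = 0.957 with Benjamini-Hochberg adjustment), -0.84 with the proximal tubule score as a covariate, and -1.27 to -0.75 when each library was left out. In AFB1_CUR it was also called lower than in CON, by 0.59 on the log2 scale (edgeR's unadjusted p = 0.0412, adjusted p = 0.816), just past the fold threshold. That call was lost with all 15 libraries, DESeq2, RLE normalization, limma, the proximal tubule covariate and when any of 7 single libraries was left out, with values of -0.59 to -0.49. Between AFB1_CUR and AFB1 the log2 fold change of SLC47A2 was 0.34 (95% interval -0.26 to 0.94) and was not called. Without AFB1 replicate 5 it was 0.68 and called, beside 1.75% of all genes tested in that fit. With each library left out in turn it ranged from 0.16 to 0.68.

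**Figure D4:**
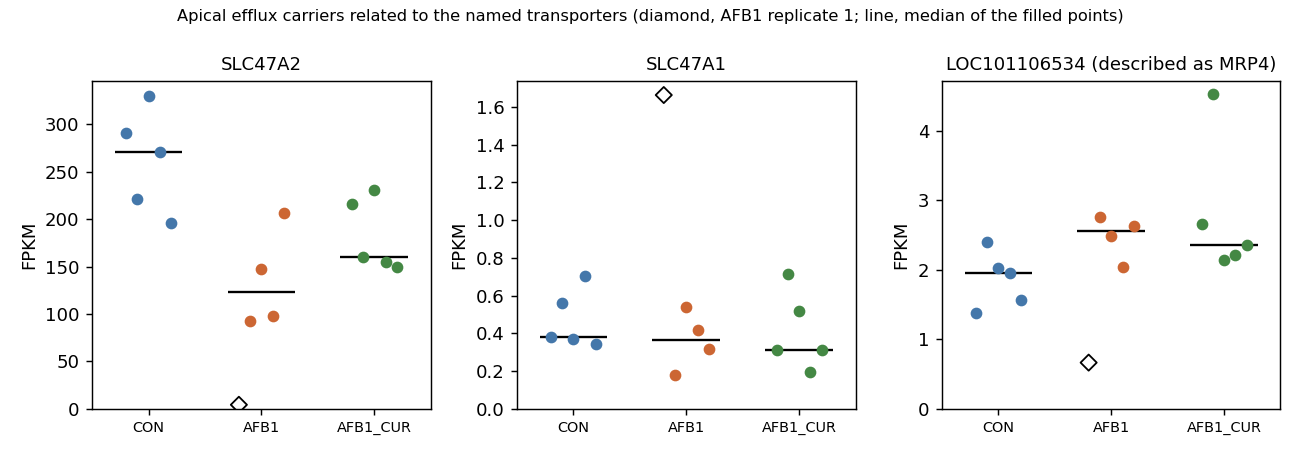
FPKM of SLC47A2, SLC47A1 and the row described as MRP4 (LOC101106534) in every library on linear axes that start at 0, with a line at the median of the filled points and an open diamond for AFB1 replicate 1. SLC47A2 reaches 329 where SLC47A1 stays at or below 0.7145 in the filled points, and 3 of 4 filled AFB1 points of SLC47A2 lie below all CON points.

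SLC47A2 belongs to a list of 32 other drug and toxin carriers and their partners, of which 30 were in the table under their symbols and 26 were tested. SLC22A6 and SLC22A12 were not listed by symbol. Between AFB1 and CON, 0 of 26 were called higher and 2 lower, SLC47A2 and SLCO1A2, beside 1.78% of all genes tested. Between AFB1_CUR and AFB1, SLCO1A2 alone was called, higher, beside 0.993%, and between AFB1_CUR and CON, SLC47A2 alone, lower, beside 1.75%. With all 15 libraries the calls in these comparisons were 1 higher and 2 lower, 1 higher and 1 lower, and 0, beside 5.05%, 4.10% and 1.12% of all genes tested. With the proximal tubule score as a covariate they were 1 lower, 2 higher, and 0, beside 2.25%, 1.61% and 1.43%. The median log2 fold change of the 26 was -0.17, 0.05 and -0.03 in these comparisons. It was 0.02, 0.00 and 0.00 over all genes tested. None of the 26 had groups without overlap, beside 1.53%, 0.679% and 0.732% of all genes tested.

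SLCO1A2 encodes OATP1A2, an uptake carrier for bile salts, steroid conjugates and drugs. Its FPKM was 1.79, 0.3465, 0.959, 2.64 and 9.29 in CON replicates 1 to 5, 1.82, 0.332, 0.341 and 0.881 in AFB1 replicates 2 to 5, and 2.57, 2.38, 1.79, 2.81 and 7.90 in AFB1_CUR replicates 1 to 5. The groups overlapped. The log2 fold change was -1.87 in AFB1 against CON (standard error 0.83, edgeR's unadjusted p = 0.0414, adjusted p = 0.957) and 2.00 in AFB1_CUR against AFB1 (standard error 0.84, edgeR's unadjusted p = 0.0319, adjusted p = 0.9999). These share the AFB1 libraries. The first was -0.82 without CON replicate 5 and -0.75 with the proximal tubule covariate, neither called, and the call was also lost without CON replicate 4 or AFB1 replicate 3, 4 or 5, at -1.91, -1.61, -1.62 and -1.96. It was lost as well with limma (-0.81 on log2(FPKM + 1) and -1.27 on log2(FPKM + 0.1)), with only the groups compared (-1.88) and with a replicate block (-1.50). The second was not called without AFB1 replicate 3, 4 or 5, at 1.73, 1.75 and 2.08, or without AFB1_CUR replicate 5, at 1.47.

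OAT1, the companion of OAT3 at the basolateral membrane, is encoded by SLC22A6. The row described as SLC22A6, LOC101117286, lies next to SLC22A8 on chromosome 21 from 37813436 to 37821311, and was also picked from its description. A further row beside it, LOC101112776, was described as SLC22A6-like and ranged from 71.7 to 182 FPKM in CON, 54.1 to 166 in AFB1 and 49.8 to 171 in AFB1_CUR. Reads can be shared between these copies, so the value of each is uncertain. The FPKM of LOC101117286 ranged from 170.3 to 391 in CON, from 69.4 to 383 in AFB1 and from 146 to 271 in AFB1_CUR. SLC22A8 was above LOC101117286 in each of the 14 libraries, by a ratio of 1.06 to 1.65 in CON, 1.41 to 3.13 in AFB1 and 1.13 to 1.57 in AFB1_CUR. The difference between AFB1 and CON was not called, at a log2 fold change of -0.64 (standard error 0.47). ABCB1, the apical P-glycoprotein pump, ranged from 4.39 to 8.13 FPKM in CON, 3.05 to 10.96 in AFB1 and 3.90 to 8.85 in AFB1_CUR. Its log2 fold change was 0.08 in AFB1 against CON and -0.12 in AFB1_CUR against AFB1, and it was not called in either.

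In AFB1 replicate 1, the liver-like library, the members present in the table split by membrane. All 3 basolateral uptake carriers (SLC22A8, SLC22A2 and SLCO4C1) were below the other 14 libraries and all 3 apical efflux carriers (ABCC2, SLC47A1 and ABCG2) were above them. SLC47A2, an apical carrier outside the set, was below them. Among the other carriers in the table, 15 of 30 were below all 14 libraries, 6 above and 9 within their range. The share over all genes was not counted, so these counts are not read as particular to transporters.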

How the data were processed

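RNA-seq libraries of sheep kidney (5 per group) were analysed from the table deposited by the authors, which gives a raw read count and an FPKM value (fragments scaled by the authors to transcript length and library depth) for each gene and library. Per the labels, reads were processed with cutadapt 1.9, HISAT2 2.2.1 and StringTie 2.1.6, with DESeq2 and edgeR also named without a role; neither the counting tool nor the build is given in the sources used here. The start and end of the 6 members match RefSeq ARS-UI_Ramb_v3.0. Groups were taken from the titles, because the treatment field counts upward within a group.

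Counts of 14 libraries, without AFB1 replicate 1, were fitted with edgeR 4.0.16 (R 4.3.3) after TMM normalization, with 1 spread for all groups. Genes were tested where 4 or more libraries reached an FPKM of 1. The 2 members below that filter were read from a fit without it, an alternative chosen after seeing the data. Standard errors and 95% intervals were derived from the quasi-likelihood F. The tests were checked on simulated counts. The genes named were the 7 members, the carriers of the list that were called, with SLC22A6, SLC47A2 and ABCB1, and for each member the 3 genes, with a symbol not starting in LOC, of highest Pearson's r over the 14 libraries, of which 1 is not reported here. Alternatives were all 15 libraries, DESeq2 1.42.0, RLE normalization, no filter, a replicate block, only the groups compared, limma 3.58.1 on log2(FPKM + 1) or log2(FPKM + 0.1), the proximal tubule score as a covariate, and each library left out. The rule names the members by symbol alone, but the members and lists were chosen with earlier results of these data known.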

Additional observations from a re-analysis of the deposited data

Results flagged for a closer look

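Within groups of 4 or 5 libraries, the gap between the most extreme library and its nearest neighbour was compared with the whole range by Dixon's criterion. Over 44 combinations of gene and group there were 7 such cases. Chance flags about 1 in 20 independent groups, but these combinations share libraries and AFB1 was looked at with and without replicate 1, so that rate is no yardstick for the count. In CON, replicate 5 stood above the other 4 for SLCO4C1 (13.5 FPKM against 1.56 to 4.60), ABCC2 (24.4 against 9.21 to 11.1) and SLCO1A2 (9.29 against 0.3465 to 2.64). That library also had the highest proximal tubule score, 8.13. In AFB1_CUR, replicate 5 stood above for SLCO1A2 (7.90 against 1.79 to 2.81). AFB1_CUR replicate 2, with the lowest proximal tubule score of the 14 libraries (6.34), stood above for LOC101106534, described as MRP4 (4.53 against 2.14 to 2.66), and below for LOC101117286, described as SLC22A6 (146 against 242 to 271). With AFB1 replicate 1 counted in its group, SLC47A1 was 1.66 there against 0.178 to 0.537.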

How the results depend on the processing

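No tested member was called in the main fit, and this held for the members past the filter in all alternatives except 1. Leaving out single libraries gave 0 to 2 members called between AFB1 and CON and 0 to 1 between AFB1_CUR and AFB1, the higher count in each case without AFB1 replicate 5. Without the filter, 1 member was called between AFB1 and CON, ABCG2. That call was also lost with a replicate block (0.65), with only the groups compared (0.79), with limma (0.17 and 0.45), with the proximal tubule covariate (0.52) and without any of 10 single libraries. Genes called of all tested (238, 133 and 235) were 678, 551 and 150 with all 15 libraries, 108, 86 and 82 with limma on log2(FPKM + 1), 867, 707 and 928 without the filter, and 213 to 470, 128 to 288 and 131 to 335 with single libraries left out. They were highest without AFB1 replicate 5 for the first, without AFB1 replicate 2 for the second, and lowest without AFB1_CUR replicate 2 for the third. With the proximal tubule covariate the second was 215.

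Estimates that changed sign were all uncalled. Between AFB1 and CON, with the proximal tubule covariate SLC22A8 was 0.24, SLC22A2 0.16 and SLCO4C1 0.59, and with all 15 libraries SLC47A1 was 0.78 and ABCC2 0.45. Between AFB1_CUR and AFB1, all 15 libraries gave 0.15 for SLC22A8, -1.08 for SLC47A1 and -0.72 for ABCC2. The covariate gave -0.05 for SLCO4C1 and -0.03 for ABCC2, and limma gave 0.08 for SLC22A8 with either pseudocount and 0.04 for ABCG2 on log2(FPKM + 0.1). Between AFB1_CUR and CON, SLCO4C1 was 0.19 and 0.27 with limma and 0.54 with the covariate. With single libraries left out, AFB1 against CON ranged from -0.51 to 0.19 for SLC22A8 and from -1.21 to 0.35 for SLCO4C1. AFB1_CUR against AFB1 ranged from -0.46 to 0.24 for SLC22A8, -0.18 to 0.28 for SLC47A1, -0.46 to 0.45 for ABCG2 and -0.10 to 0.16 for LOC101106534. AFB1_CUR against CON ranged from -0.07 to 0.27 for SLC22A2, -0.30 to 0.71 for SLCO4C1, -0.54 to 0.08 for ABCC2 and -0.41 to 1.18 for SLCO1A2. The cause was not tested. ABCG2 in AFB1_CUR against CON became called with only the groups compared or without AFB1 replicate 2 (0.59 in both). With all 15 libraries, r with the proximal tubule score was 0.971 for SLC22A8, 0.989 for SLC22A2, -0.847 for SLC47A1, -0.309 for ABCC2 and -0.796 for ABCG2.

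The correlation of deviations was -0.27 to 0.554 over 13 same-number pairs (median 0.074, with 5 over 0.1) and -0.543 to 0.374 over 52 other pairs (median -0.019, with 13 over 0.1). Not every same-number pair was over 0.1, and 4 of 14 libraries were closest to 1 of their own number, so the numbers were not taken to pair the libraries. A replicate block gave 239, 158 and 300.0 genes called, 0 members in each comparison, 0.15 for SLCO4C1 in AFB1_CUR against CON and -1.50 for SLCO1A2 in AFB1 against CON, the latter then uncalled. With 4 or 5 libraries per group, the lower ends of the 95% intervals for AFB1 against CON were folds of 0.489 for SLC22A8, 0.430 for SLC22A2, 0.254 for SLCO4C1 and 0.331 for ABCC2.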
